A study of Homo sapiens with 6 samples.

Results

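The genes described here are 45 interferon-stimulated genes, listed by symbol and leaving out IFI27 and its relatives, in MCF10CA1a cells on stiff and soft hydrogels. All 45 symbols were found among the 26484 genes of the count tables, and 41 of them passed the filter on low counts, which kept 11517 genes for testing. By role, 9 of the listed genes are sensors of foreign RNA or DNA, 4 are transcription factors, 7 belong to ISG15 conjugation, ADP-ribosylation and feedback, 19 are effectors and 6 are other interferon-inducible genes. In each of the sensor and transcription factor classes every listed gene was tested, while the tested genes numbered 6, 18 and 4 in the other three classes. CMPK2, the mitochondrial nucleotide kinase, had 0 counts in every library. HERC5, the main ligase that attaches ISG15, had 2 counts in 500 Pa replicate 3 and 0 elsewhere. XAF1, an antagonist of inhibitors of apoptosis, had at most 9 counts in a library, and EPSTI1 had at most 7.

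MCF10CA1a is a tumour-forming derivative of the human breast epithelial line MCF10A, so all libraries share 1 cell line. In the 8000 Pa group cells stood on stiff gels and in the 500 Pa group on soft gels, both coated with growth factor-reduced Matrigel at 0.14 mg/ml in medium with horse serum, with fresh medium on day 4 and RNA taken on day 5. The labels give no added interferon, infection or genetic change in either group. Each group has 3 libraries, called biological triplicates and numbered 1 to 3, of RNA labelled cytosolic. Whether libraries of the same number share a culture day is not given in the sources used here.

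Library totals ran from 9068926 to 10739449 counts at 8000 Pa and from 8305601 to 18779742 at 500 Pa, so that 3 counts equal 0.240 to 0.317 and 0.168 to 0.429 CPM, the count scaled to a fixed library size. Levels in CPM are scaled by TMM, a correction for library composition. Across genes the level in a library, relative to the other libraries, correlated with the GC content of the transcript, with Spearman coefficients of -0.77 in 8000 Pa replicate 1, 0.69 in 8000 Pa replicate 3 and 0.54 in 500 Pa replicate 3, and between -0.14 and -0.06 in the other libraries (11003 genes, which are not independent replicates). These 3 libraries stand apart from the rest. All 9 breast epithelial markers were tested, with a summed level of 10917 to 21153 CPM at 8000 Pa and 14053 to 26337 CPM at 500 Pa. Of 10 leukocyte markers, 5 had 0 counts, among them PTPRC, CD3E, CD3D and MS4A1, while 3 had enough counts to be tested. The list summed to 26.6 to 47.3 CPM at 8000 Pa and 24.6 to 50.9 CPM at 500 Pa. All 3 plasmacytoid dendritic cell markers had 0 counts, and 3 of 6 fibroblast markers had 0, with a sum of 1.79 to 3.80 CPM at 8000 Pa and 1.12 to 1.86 CPM at 500 Pa. The 6 endothelial markers summed to 213 to 258 CPM at 8000 Pa and 100.2 to 156 CPM at 500 Pa, of which PECAM1 and CDH5 rose in the paired test; the part of any of these levels in the results below was not tested.

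Interferons bind receptors on the cell surface, and JAK kinases then phosphorylate STAT proteins. The complex ISGF3, of which STAT2 and IRF9 are subunits, binds the interferon-stimulated response element (ISRE) in the promoters of its targets, while STAT dimers bind the gamma-activated site (GAS). The products sense viral nucleic acid, block entry, replication and budding of viruses, and feed back on the pathway, and many of them are also transcribed at a basal level in uninfected epithelial cells and in tumour cells.

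Promoters of members are shown because 17 of the 41 tested members differed by replicate number, 16 upward and 1 downward from replicate 1 to 3, as described below. The elements through which interferon acts can also be read in them. The sequences are RefSeq windows on GRCh38.p14 from 250 bases before to 50 after the annotated start, 5′ to 3′ on the gene's strand. Capitals mark matches on either strand to the ISRE core (GAAA, any 2 bases, then GAAA, or TTTC, any 2 bases, then TTTC on the other strand) or to the GAS type (TTCNNNGAA). ISG15 and IFIT1 stand for the conjugation genes and the effectors, IFITM1 and OAS3 for a membrane effector and a sensor, and LGALS3BP for the most abundant member. IRF9 stands for the transcription factors, in whose windows the ISRE core was not found.
ISG15 promoter (chr1:1013247-1013546, plus strand): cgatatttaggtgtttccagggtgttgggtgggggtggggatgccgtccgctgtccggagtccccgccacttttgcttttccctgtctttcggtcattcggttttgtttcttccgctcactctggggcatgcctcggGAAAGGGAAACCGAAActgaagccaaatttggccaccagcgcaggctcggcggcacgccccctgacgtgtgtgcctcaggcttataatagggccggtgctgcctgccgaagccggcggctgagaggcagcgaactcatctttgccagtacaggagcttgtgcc
IFIT1 promoter (chr10:89392373-89392672, plus strand): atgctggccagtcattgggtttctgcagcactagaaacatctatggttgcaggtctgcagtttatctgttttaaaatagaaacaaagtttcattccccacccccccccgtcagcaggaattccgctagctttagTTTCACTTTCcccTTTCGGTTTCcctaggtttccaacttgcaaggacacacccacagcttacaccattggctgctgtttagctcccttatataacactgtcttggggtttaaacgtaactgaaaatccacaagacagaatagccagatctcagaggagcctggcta
IFITM1 promoter (chr11:313790-314089, plus strand): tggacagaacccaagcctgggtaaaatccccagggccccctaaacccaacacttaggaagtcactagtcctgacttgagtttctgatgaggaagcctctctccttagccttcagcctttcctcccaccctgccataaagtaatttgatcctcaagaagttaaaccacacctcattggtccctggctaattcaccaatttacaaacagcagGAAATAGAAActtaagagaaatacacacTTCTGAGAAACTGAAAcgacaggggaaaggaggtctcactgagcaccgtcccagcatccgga
OAS3 promoter (chr12:112938224-112938523, plus strand): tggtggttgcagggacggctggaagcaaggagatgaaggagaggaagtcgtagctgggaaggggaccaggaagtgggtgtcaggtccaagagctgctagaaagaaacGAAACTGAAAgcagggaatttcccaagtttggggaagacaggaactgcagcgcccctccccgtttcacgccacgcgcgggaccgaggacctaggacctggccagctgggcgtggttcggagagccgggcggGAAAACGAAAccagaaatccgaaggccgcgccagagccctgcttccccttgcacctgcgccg
LGALS3BP promoter (chr17:78979874-78980173, minus strand): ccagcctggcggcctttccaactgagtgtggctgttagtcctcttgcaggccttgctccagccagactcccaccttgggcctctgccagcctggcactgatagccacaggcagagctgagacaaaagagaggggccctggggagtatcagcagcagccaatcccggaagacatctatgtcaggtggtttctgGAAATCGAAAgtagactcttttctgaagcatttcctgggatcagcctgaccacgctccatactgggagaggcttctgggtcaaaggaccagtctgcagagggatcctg
IRF9 promoter (chr14:24161015-24161314, plus strand): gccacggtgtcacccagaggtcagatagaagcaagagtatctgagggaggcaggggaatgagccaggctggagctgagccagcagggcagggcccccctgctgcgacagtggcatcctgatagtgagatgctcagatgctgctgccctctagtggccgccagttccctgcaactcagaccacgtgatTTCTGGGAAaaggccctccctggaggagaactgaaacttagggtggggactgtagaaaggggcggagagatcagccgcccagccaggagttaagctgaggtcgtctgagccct

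In ISG15 on chromosome 1 the 2 overlapping ISRE matches began 113 and 107 bases before the start, and in IFIT1 on chromosome 10 they began 116 and 103 bases before it. In IFITM1 the GAS match 12 bases before the start overlapped 1 of its 2 ISRE matches. OAS3 held 2 ISRE matches, LGALS3BP 1 ISRE match 58 bases before the start, and IRF9 1 GAS match 63 bases before it. Of 35116 RefSeq windows, 3.57% held the ISRE core and 7.66% the GAS type. Of the 47 windows of members, 27 held the ISRE core (57.4%) and 10 the GAS type (21.3%). Counted by gene, a window was found for 36 of the 45 members. In any of their windows, 24 of these held the ISRE core (66.7%) and 10 the GAS type (27.8%). By class the ISRE core was in the windows of 5 of 6 conjugation and feedback genes, 12 of 15 effectors, 4 of 6 other genes and 3 of 6 sensors, and in 0 of 3 transcription factors, 2 of which held the GAS type. A match describes letters in the window and is not evidence of binding.

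The members took 0.583%, 0.719% and 0.938% of all counts in 8000 Pa replicates 1 to 3, against 0.568%, 0.616% and 1.13% in 500 Pa replicates 1 to 3. Their summed level was 4823, 6888 and 10043 CPM at 8000 Pa, against 5956.5, 5872 and 13391 CPM at 500 Pa, so the groups overlapped and replicate 3 was the highest library in both. LGALS3BP, a secreted glycoprotein that binds galectins, made up a large part of that sum. Without it the sum was 2858, 4081 and 5341 CPM at 8000 Pa, against 2722, 3379 and 7270 CPM at 500 Pa. Per kilobase of exon, the scale on which genes can be compared, LGALS3BP had 992 CPM per kb on average over the 6 libraries, followed by IFITM1 at 565, IFITM3 at 551, BST2 at 515 and ISG15 at 379. IFI35 stood at 109, OAS1 at 94.3, IRF9 at 45.4 and OAS3 at 24.96 CPM per kb. The levels of IFITM1, IFITM3 and BST2 ran through each other across the libraries, so their order is not separated from the spread.

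**Figure D1:**
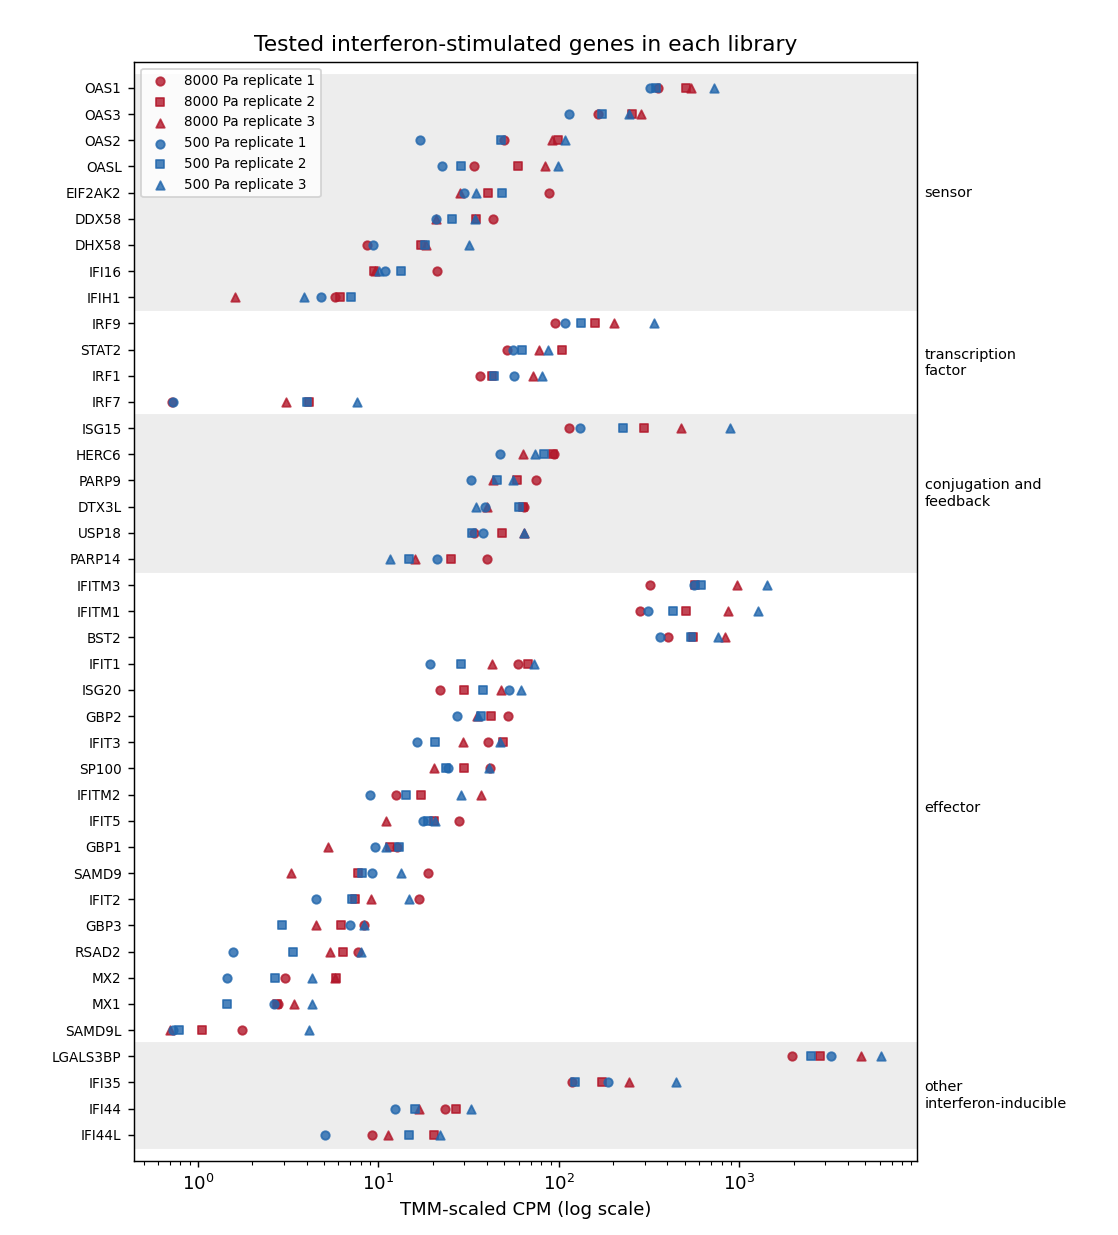
TMM-scaled CPM (log scale) of the 41 tested members in each of the 6 libraries, 8000 Pa in red and 500 Pa in blue, with a marker shape for each replicate number and members grouped by role. The red and blue points of each gene are interleaved, and for ISG15 and the IFITM genes the triangles (replicate 3) lie to the right of the circles (replicate 1) in both colours.

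The comparison of stiff with soft gels asked whether these transcripts differed with stiffness. In edgeR's quasi-likelihood test without pairing, 0 of the 41 tested members passed an FDR of 0.05, where 0% of all 11517 tested genes did, and 0 members had an unadjusted p under 0.05, where 2.45% of all genes did. DESeq2 and limma-voom also called 0 members, with pairing or without. The smallest adjusted p of a member in the unpaired edgeR test was 0.99988. With the replicate number as a block, which is called the paired test below, 0 of 41 members passed while 61 genes (0.53%) did, and the smallest adjusted p of a member was 0.117, for OAS2. At an unadjusted p under 0.05 in the paired edgeR test, 5 members were higher at 8000 Pa (OAS2, IFIT1, PARP14, IFIT3 and RSAD2) and 2 were lower (ISG20 and IFITM3), where 4.49% of all genes were higher and 6.12% lower. In 0 members did the 3 libraries of one stiffness all lie above the 3 of the other, where 4.02% of all genes were so placed upward at 8000 Pa and 2.85% downward. The unpaired edgeR p-values draw on the spread between these triplicates and on that of other genes. The paired ones rest on a trend shared by all genes and do not measure a gene's own spread. A p that misses the threshold does not show equal levels. In bulk RNA, fewer cells with a transcript and less transcript per cell cannot be told apart.

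The fold changes, given as log2 of 8000 Pa over 500 Pa, lay on both sides of 0. In the unpaired and in the paired edgeR fit alike, 26 of the 41 were above 0, where 5684 of 11517 genes were above 0 in the paired fit. The median over the tested members was 0.11 unpaired and 0.14 paired, beside 0.01 and -0.01 over all tested genes. By class, the paired median was 0.27 for sensors, -0.25 for transcription factors, 0.33 for conjugation and feedback genes, 0.12 for effectors and -0.09 for the other genes. The unpaired medians were 0.25, -0.30, 0.31, 0.08 and -0.17 in the same order of classes. With no filter on low counts, the median of the other genes was 0.22 paired and 0.08 unpaired. Standard errors of the unpaired fold changes ran from 0.29 (GBP2) to 0.75 (IRF7). Without 500 Pa replicate 3 the unpaired median of the transcription factors was 0.31, and without 8000 Pa replicate 3 it was -0.61, so that its sign hangs on the replicate 3 libraries. When each pair was left out in turn, the paired medians ran from -0.11 to 0.60 for sensors, from -0.43 to 0.07 for transcription factors, from 0.086 to 0.54 for conjugation and feedback genes, from -0.09 to 0.58 for effectors and from -0.30 to 0.33 for the other genes, so that only that of the conjugation and feedback genes kept its sign. Without replicate 3 the paired member median was 0.52, against -0.08 without either replicate 1 or replicate 2, so its sign also depends on which replicates are included. Fold changes also moved with the GC content of the transcript. The 17 members at 50% or more had a paired median of -0.22, with 7 above 0. The 24 below 50% had 0.30, with 19 above 0. Over all tested genes these medians were -0.19 and 0.10. Median GC content ran from 43.6% for effectors to 54.0% for transcription factors. The part of GC content in the class medians was not tested.

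**Figure D2:**
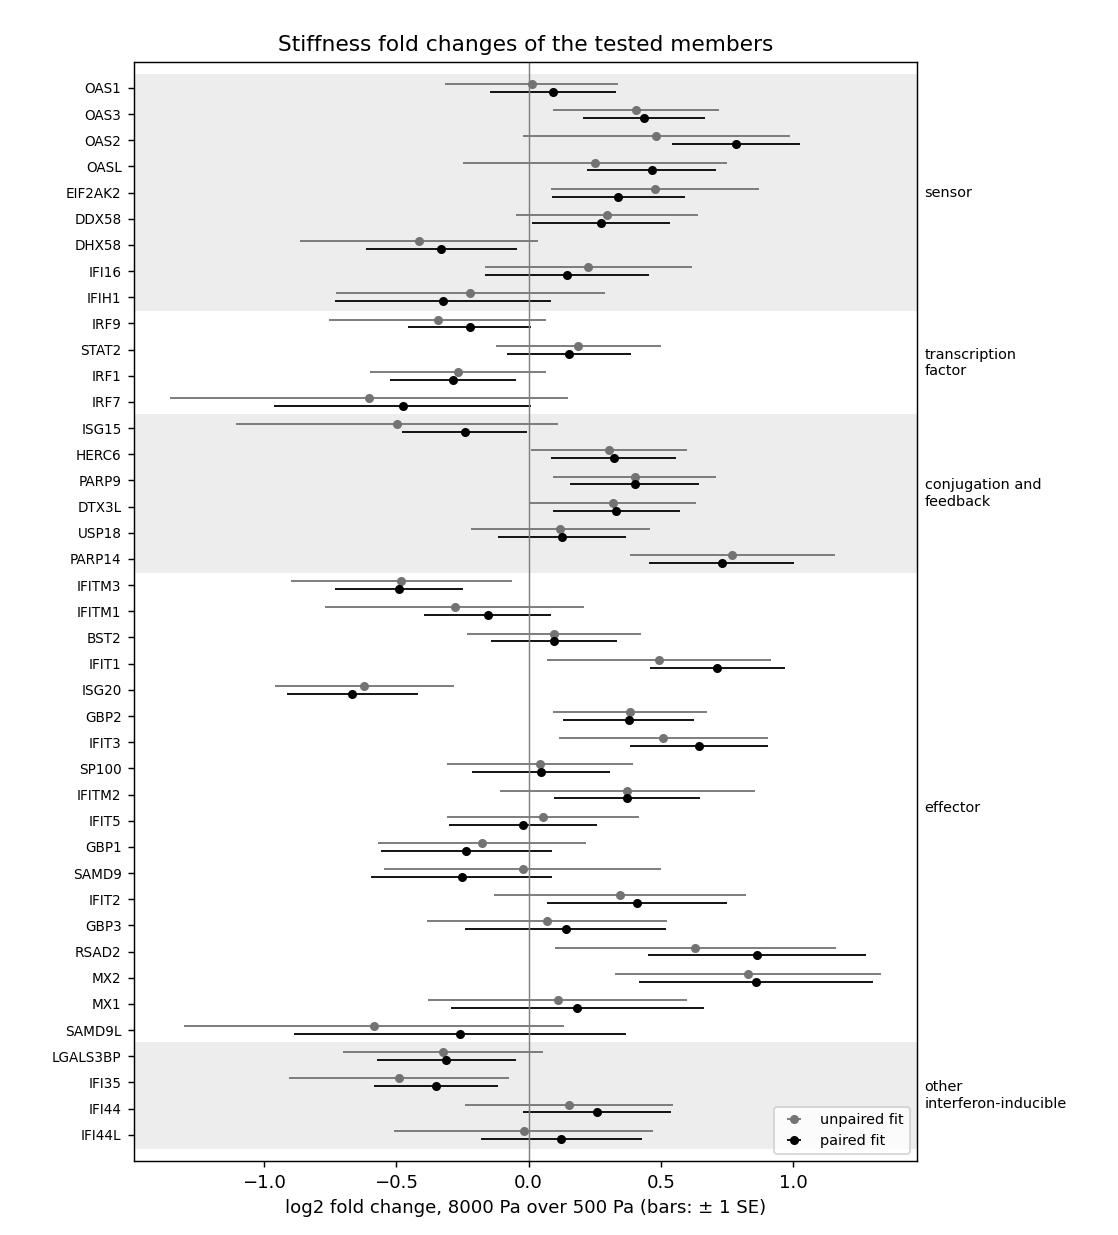
Log2 fold change of 8000 Pa over 500 Pa for the 41 tested members, in the unpaired fit (grey) and the paired fit (black), with bars of 1 standard error on either side. The values lie on both sides of 0, paired from -0.67 (ISG20) to 0.86 (RSAD2 and MX2), and no member passed an FDR of 0.05 in either edgeR fit.

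Among the sensors, the OAS enzymes make the short oligoadenylates that switch on RNase L when they meet double-stranded RNA. OAS2 (chromosome 12, 112978395 to 113011723, GRCh38) had 49.6, 98.8 and 92.2 CPM in 8000 Pa replicates 1 to 3, against 17.0, 47.8 and 108 CPM in 500 Pa replicates 1 to 3. The 500 Pa libraries thus held both the lowest and the highest value, and 8000 Pa was the higher of replicates 1 and 2 and the lower of replicate 3. Its paired log2 fold change was 0.78 ± 0.24 (SE), with an adjusted p of 0.117 in edgeR, and the unpaired one was 0.48; leaving out a pair gave 0.42 (without replicate 1) to 1.34 (without replicate 3). OASL, a relative that lacks this enzymatic activity and enhances sensing by RIG-I, had 34.1, 59.1 and 84.0 CPM at 8000 Pa, against 22.5, 28.7 and 98.5 CPM at 500 Pa. The order of its libraries was like that of OAS2, with the extremes both at 500 Pa. OAS1, next to OAS3 on chromosome 12, had 354, 510.0 and 540.5 CPM at 8000 Pa, against 321, 345 and 728 CPM at 500 Pa. OAS3 had 165, 255 and 284 CPM at 8000 Pa, against 113, 174 and 244 CPM at 500 Pa, and was the higher at 8000 Pa in each same-numbered pair, with a paired log2 fold change of 0.44 and an adjusted p of 0.499 in edgeR. The DNA sensor IFI16, the kinase EIF2AK2 (PKR) and the helicase DDX58 (RIG-I) had paired fold changes of 0.14, 0.34 and 0.27 with their highest values in 8000 Pa replicate 1. DHX58 (LGP2), a helicase without a signalling domain, had 8.63, 17.2 and 18.3 CPM at 8000 Pa, against 9.33, 18.1 and 31.7 CPM at 500 Pa. IFIH1 (MDA5), the sensor of long double-stranded RNA, had 5.75, 6.13 and 1.60 CPM at 8000 Pa, against 4.81, 7.04 and 3.86 CPM at 500 Pa. These 2 had the lowest paired fold changes of the sensors, -0.33 and -0.32.

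Among the transcription factors, IRF9 is the DNA-binding subunit of ISGF3, which STAT2 joins. IRF9 (chromosome 14, 24161053 to 24166565) had 94.97, 158 and 203 CPM at 8000 Pa, against 108, 132 and 339 CPM at 500 Pa. STAT2 had 51.4, 104 and 78.2 CPM at 8000 Pa, against 56.0, 62.3 and 87.2 CPM at 500 Pa. IRF9 was highest in replicate 3 of either stiffness, STAT2 in 8000 Pa replicate 2, and neither separated the stiffnesses. IRF7, the amplifier of interferon alpha genes, was low, at 0.719, 4.12 and 3.09 CPM at 8000 Pa, against 0.726, 4.02 and 7.57 CPM at 500 Pa. IRF1, which also answers interferon gamma, had 36.5, 42.5 and 71.9 CPM at 8000 Pa, against 56.7, 43.9 and 80.9 CPM at 500 Pa. The paired fold changes of IRF9, STAT2, IRF7 and IRF1 were -0.22, 0.15, -0.48 and -0.29.

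Among the conjugation and feedback genes, ISG15 encodes the ubiquitin-like protein that is attached to other proteins and also secreted. ISG15 (chromosome 1, 1001138 to 1014540) had 113, 296 and 477 CPM at 8000 Pa, against 130.4, 226 and 894 CPM at 500 Pa, a mean of 295 ± 182 CPM against 417 ± 416 CPM (SD, n = 3 each). The spread between replicates was therefore larger than the gap between the means, and the fold changes were -0.50 unpaired and -0.24 paired. USP18, which removes ISG15 and blocks the interferon receptor, had 34.0, 48.6 and 64.2 CPM at 8000 Pa, against 37.8, 33.2 and 64.3 CPM at 500 Pa. PARP14, a mono-ADP-ribosyltransferase, had 40.2, 25.2 and 16.0 CPM at 8000 Pa, against 21.1, 14.9 and 11.6 CPM at 500 Pa. It was the higher at 8000 Pa in each same-numbered pair and, unlike ISG15, was highest in replicate 1 of either stiffness; its paired log2 fold change was 0.73 ± 0.27 (SE), with an adjusted p of 0.254 in edgeR. PARP9, which works as a dimer with the ubiquitin ligase DTX3L, had 75.004, 58.5 and 43.4 CPM at 8000 Pa, against 32.8, 45.7 and 55.7 CPM at 500 Pa. PARP9 and DTX3L overlap on opposite strands, and since the strand setting of the counting is not given, their reads may not be fully separated. HERC6 and DTX3L had paired fold changes of 0.32 and 0.33.

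Among the effectors, the IFIT proteins bind viral RNA that lacks the cap modification of the host. IFIT1 (chromosome 10, 89392546 to 89406486) had 59.1, 67.4 and 42.8 CPM at 8000 Pa, against 19.4, 28.7 and 72.7 CPM at 500 Pa. IFIT3, which stabilises IFIT1, had 40.5, 49.0 and 29.5 CPM at 8000 Pa, against 16.4, 20.7 and 47.0 CPM at 500 Pa. Both were over 1 log2 unit higher at 8000 Pa in pairs 1 and 2 (1.58 and 1.22 for IFIT1, 1.28 and 1.23 for IFIT3) and lower in pair 3 (-0.76 and -0.66). RSAD2 (viperin), which makes a chain-terminating nucleotide, and MX2, a GTPase that holds back retroviral capsids, had the largest paired fold changes of all tested members, 0.86 ± 0.41 and 0.86 ± 0.44 (SE). RSAD2 was low, at 7.67, 6.34 and 5.38 CPM at 8000 Pa, against 1.56, 3.35 and 8.003 CPM at 500 Pa. MX2 had 3.04, 5.81 and 5.78 CPM at 8000 Pa, against 1.45, 2.68 and 4.29 CPM at 500 Pa. MX2 was higher at 8000 Pa in every pair and RSAD2 in pairs 1 and 2, yet adjusted p was 0.477 and 0.425 in the paired edgeR test. Leaving out a pair gave 0.16 (without replicate 1) to 1.66 (without replicate 3) for RSAD2 and 0.74 to 1.14 for MX2.

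At the other end of the effectors stood ISG20, an RNA exonuclease, and IFITM3, a membrane protein that blocks viral fusion in endosomes. ISG20 had 21.97, 29.8 and 47.8 CPM at 8000 Pa, against 53.0, 38.01 and 61.9 CPM at 500 Pa. IFITM3 had 322, 570.3 and 968 CPM at 8000 Pa, against 561, 616 and 1419 CPM at 500 Pa. Both were lower at 8000 Pa in each same-numbered pair, while the ranges of the groups overlapped. Their paired log2 fold changes were -0.67 ± 0.25 and -0.49 ± 0.24 (SE), with adjusted p of 0.244 and 0.451 in edgeR. IFITM1, which acts at the cell surface, had 280.1, 506 and 867 CPM at 8000 Pa, against 310.4, 431 and 1266 CPM at 500 Pa. IFITM2 had 12.5, 17.2 and 37.2 CPM at 8000 Pa, against 8.94, 14.3 and 28.7 CPM at 500 Pa. The IFITM genes are near-identical neighbours on chromosome 11, and the annotated spans of IFITM1 and IFITM2 overlap on one strand, so how reads were divided among them is uncertain. BST2 (tetherin), which holds budding virus at the membrane, had 402, 555 and 830 CPM at 8000 Pa, against 363, 543 and 767 CPM at 500 Pa. Its values at each replicate number were close between the stiffnesses, with a paired fold change of 0.10. GBP1, GBP2 and GBP3, GTPases that attack vacuoles holding pathogens, had paired fold changes of -0.23, 0.38 and 0.14, and those of MX1, SP100, IFIT2, IFIT5, SAMD9 and SAMD9L lay between -0.26 and 0.41.

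Of the other interferon-inducible genes, LGALS3BP (chromosome 17, 78971238 to 78980109) had 1965, 2807 and 4702 CPM at 8000 Pa, against 3234, 2494 and 6121 CPM at 500 Pa. IFI35, a leucine zipper protein that interacts with NMI, had 118, 173 and 246.5 CPM at 8000 Pa, against 188, 123 and 445 CPM at 500 Pa. IFI44L and IFI44, neighbours on chromosome 1, were lower. IFI44L had 9.27, 20.3 and 11.4 CPM at 8000 Pa, against 5.09, 14.9 and 21.9 CPM at 500 Pa. IFI44 had 23.4, 27.05 and 16.7 CPM at 8000 Pa, against 12.3, 15.9 and 32.6 CPM at 500 Pa. All 4 were lower at 8000 Pa in pair 3 and higher in pair 2, and their paired fold changes were -0.31, -0.35, 0.12 and 0.26.

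Taken pair by pair, the members differed in opposite directions at different replicate numbers. The median log2 ratio of 8000 Pa over 500 Pa, computed on CPM + 0.5, was 0.59 in pair 1, 0.28 in pair 2 and -0.53 in pair 3, beside 0.03, -0.02 and -0.02 over all tested genes. In pair 1, 29 of 41 tested members were above 0 and in pair 2, 32 were, whereas in pair 3 only 6 were above 0 and 35 (85.4%) were below, where 51.6% of all tested genes were below. The effectors had pair medians of 0.70, 0.24 and -0.61, the sensors 0.59, 0.44 and -0.28, and the conjugation and feedback genes 0.81, 0.37 and -0.11. The transcription factors had -0.15, 0.14 and -0.45, and the other genes 0.07, 0.46 and -0.88. Pair 3 was thus the lowest in each of the 5 classes. Over all 3 pairs, 6 of the 41 members were higher at 8000 Pa each time and 4 were lower each time. Of all 11517 tested genes, 1684 were higher each time and 1747 lower, so the same sign in every pair does not set the members apart. With each library's GC trend removed, an alternative chosen after seeing the data, the member medians were 0.44, 0.34 and -0.52, and 34 of 41 were below 0 in pair 3.

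**Figure D3:**
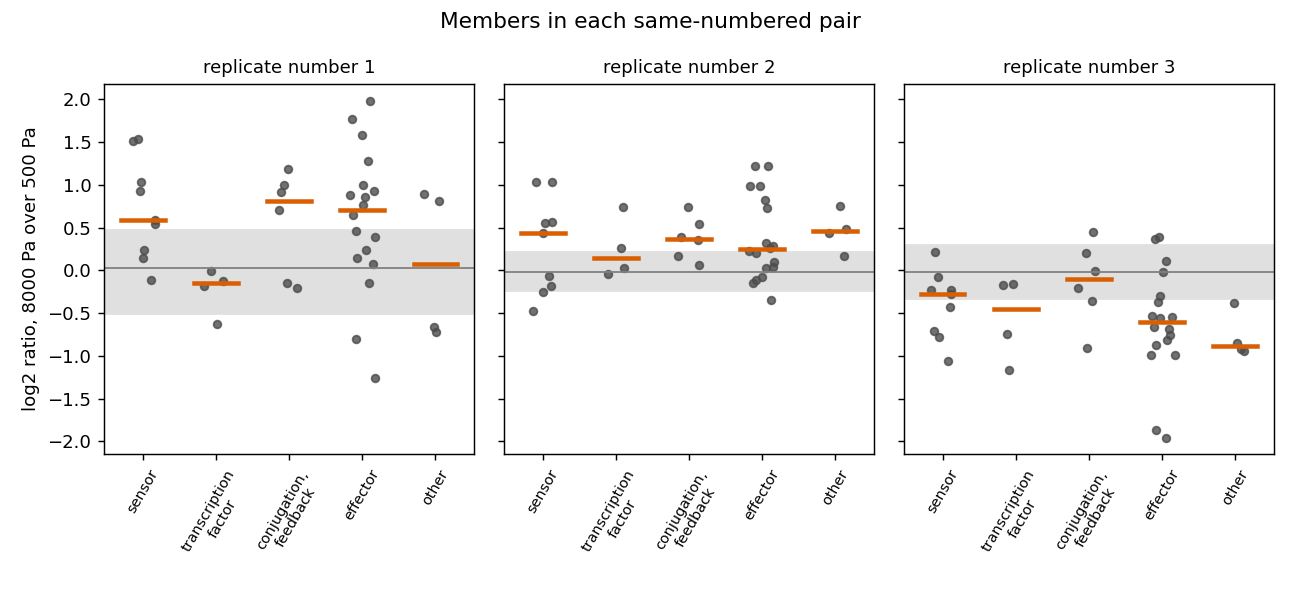
Log2 ratio of 8000 Pa over 500 Pa for each tested member within replicate numbers 1, 2 and 3, by class, with orange bars at the class median, a grey line at the median and a grey band over the middle quartiles of all tested genes. Most points lie above the line at replicate numbers 1 and 2, and 35 of 41 lie below 0 at replicate number 3.

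Whether a gene's level differed by replicate number, with stiffness in the same model, was tested with edgeR's quasi-likelihood test over all genes. Its p-values, like those of the paired test, rest on a trend shared by all genes. In that test 17 of the 41 tested members (41.5%) passed an FDR of 0.05, where 14.7% of all tested genes did. In 16 of them the replicate 3 level was above that of replicate 1 (6.84% of all genes), and in 1, PARP14, it was below (7.84%). The test was passed by 5 of 9 sensors (OAS1, OAS2, OAS3, OASL and DHX58), 3 of 4 transcription factors (IRF1, IRF7 and IRF9) and 2 of 6 conjugation and feedback genes (ISG15 and PARP14). It was also passed by 4 of 18 effectors (IFITM1, IFITM2, IFITM3 and BST2) and 3 of 4 other genes (IFI35, IFI44L and LGALS3BP). ISG15 was 4.20 times as high in replicate 3 as in replicate 1 at 8000 Pa and 6.86 times at 500 Pa, with a fitted log2 difference of 2.46 ± 0.30 (SE) and an adjusted p of 7.68e-13 in edgeR. For IFITM1 the fitted log2 difference was 1.84 ± 0.30 (adjusted p 4.99e-07 in edgeR), for OASL 1.75 ± 0.30 (2.3e-06), for OAS2 1.81 ± 0.30 (4.47e-06) and for IRF9 1.40 ± 0.29 (0.000329). For LGALS3BP, BST2, OAS3 and OAS1 it was between 0.92 and 1.08. In both replicate 3 libraries 14 members (34.1%) were above all 4 others, where 16.8% of all genes were, and in both replicate 1 libraries 11 (26.8%) were below all 4 others, where 11.5% were.

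That test leaned on individual libraries. Without 500 Pa replicate 3, 1 member passed (ISG15) with 1.08% of all genes, and without 8000 Pa replicate 3, 6 members passed with 0.691% of all genes. Without 8000 Pa replicate 2, 15 members passed with 11.5% of all genes, and without 500 Pa replicate 2, 11 passed with 6.26%. Without 8000 Pa replicate 1, 21 members passed (16 of them among the 17), and without 500 Pa replicate 1, 22 did (15 of the 17), with 12.9% and 31.5% of all genes.

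Transcript GC content moved with the same difference. Across the 41 tested members the log2 difference of replicate 3 over replicate 1 had a Spearman rho of 0.69 with the GC content of the longest transcript, and across 11003 genes rho was 0.78; genes share the libraries and are not independent replicates. Of the 17 tested members with a GC content of 50% or more, all 17 were higher in replicate 3 than in replicate 1, with a median of 1.16, and 13 passed the replicate-number test. Over all tested genes of that GC content the median was 0.54 and 15.3% passed. Of the 24 members below 50%, 11 were higher, with a median of -0.05, and 4 passed (OAS1, OAS2, IFI44L and PARP14), where all such genes had a median of -0.50 and 14.5% passed. With a GC offset in the model, 12 of 41 members passed the replicate-number test, where 5.31% of all tested genes did. These were ISG15, IFITM1, IFITM2, IFITM3, OAS1, OAS2, OASL, IRF9, IFI35 and IFI44L, each of which had also passed without it, and IFIT1 and IFI44, which had not. With the offset the median difference of replicate 3 over replicate 1 was 0.55 over the members and 0.02 over all tested genes. The part of GC content in the replicate difference was not tested beyond this offset.

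**Figure D4:**
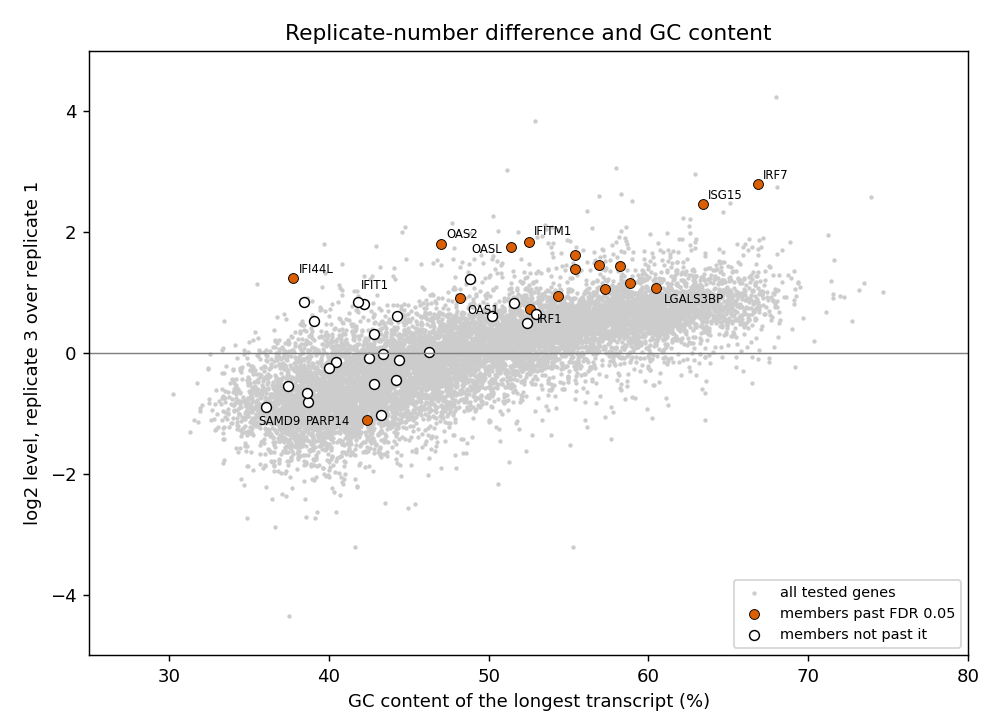
Log2 level of replicate 3 over replicate 1, fitted over both stiffnesses, against the GC content of the longest transcript for 11003 tested genes (grey) and the 41 tested members (filled where they passed the replicate-number test). The grey cloud rises with GC content, the members at 50% or more all lie above 0, and OAS2 and IFI44L lie above the cloud's centre at lower GC content.

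The single library with the highest members was 500 Pa replicate 3. It held the highest level of 20 of the 41 tested members (48.8%), where it did so for 23.0% of all tested genes. 8000 Pa replicate 1 held the highest level of 13 members (31.7%), beside 30.5% of all genes. The lowest level was in 500 Pa replicate 1 for 16 members (39.0%), where it was there for 10.5% of all genes. With each library's GC trend removed, 500 Pa replicate 3 held the highest level of 31 of 41 members (75.6%), beside 22.5% of 11003 genes, and 500 Pa replicate 1 the lowest of 25 (61.0%), beside 13.8%. By class the highest level after removal was in 500 Pa replicate 3 for 15 of 18 effectors, 4 of 6 conjugation and feedback genes, 5 of 9 sensors, 3 of 4 transcription factors and 4 of 4 other genes. By these counts of genes, the 2 libraries at the extremes are thus both from soft gels. By the summed level of the members, the lowest library was 8000 Pa replicate 1 (4823 CPM), and without LGALS3BP it was 500 Pa replicate 1 (2722 CPM).

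**Figure D5:**
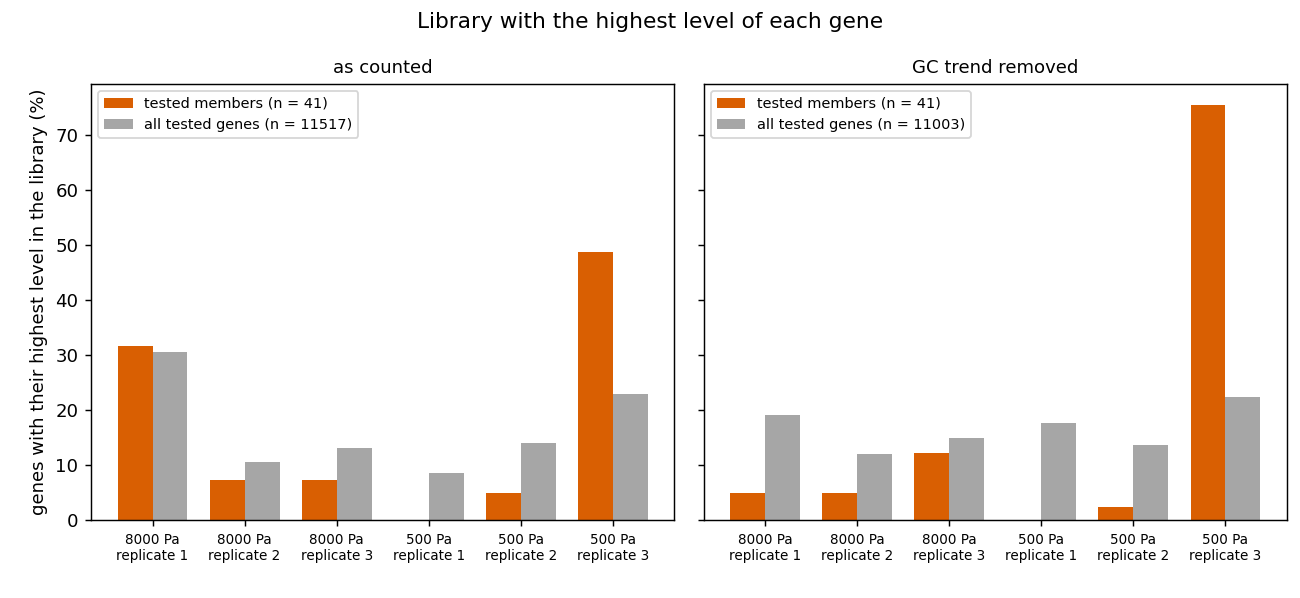
Share of genes (%) whose highest level lies in each library, for the tested members (orange) and all tested genes (grey), with levels as counted on the left and with each library's GC trend removed on the right. The orange bar of 500 Pa replicate 3 stands at 48.8% on the left and 75.6% on the right, with grey bars of 23.0% and 22.5%.

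The promoter motifs were set beside this result as a description. Of the 12 members with a window that passed the replicate-number test, 8 held the ISRE core and 7 the GAS type, and of the 20 tested members with a window that did not pass, 14 held the ISRE core and 2 the GAS type. PARP14, among those that passed with a GAS match, was lower in replicate 3 than in replicate 1. OAS2, OASL, IFITM2, DHX58 and IRF7 passed that test but had no window. ISG15 and IFIT1, both with 2 ISRE cores, lay on either side of that test's threshold, since IFIT1 was not called (adjusted p 0.115 in edgeR). Whether the motifs go with the replicate difference was not tested.

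Upstream of the members, the interferon genes themselves had few or no counts. Of 16 ligand and receptor genes 7 could be tested, and 0 passed for stiffness in either edgeR fit. IFNA1, IFNA2, IFNG, IFNK and IFNW1 had 0 counts, where 3 counts would be 0.168 to 0.429 CPM, and IFNB1 had 2, 5 and 7 counts at 8000 Pa, against 2, 6 and 7 counts at 500 Pa. The type III interferons IFNL2 and IFNL3 had too few counts to be tested. IFNL2 had 1, 6 and 5 counts at 8000 Pa, against 2, 4 and 2 at 500 Pa. For IFNL3 the counts were 7, 8 and 2 at 8000 Pa, against 2, 3 and 5 at 500 Pa. IFNL1, a type III interferon that acts on epithelia, had 8 to 31 counts in a library. Its level was 0.639, 1.27 and 2.09 CPM at 8000 Pa, against 0.838, 0.894 and 4.43 CPM at 500 Pa. IFNL1 was highest in 500 Pa replicate 3, as were 20 of the 41 tested members with levels as counted. It passed the replicate-number test narrowly (adjusted p 0.0474 in edgeR), which it did not with the GC offset (0.204). The receptor subunits IFNAR1 and IFNGR1 passed that test too, each lower in replicate 3 than in replicate 1, and likewise not with the GC offset (0.426 and 0.497).

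Of 13 tested genes of JAK-STAT and nucleic-acid signalling, 0 passed for stiffness and 3 by replicate number (TMEM173, MB21D1 and TBK1). Of all tested genes, 14.7% passed by replicate number. The fitted log2 difference of replicate 3 over replicate 1 was 1.07 for TMEM173, but -2.13 for MB21D1 and -1.25 for TBK1. TMEM173 and TBK1 did not pass with the GC offset. MB21D1, with 2 to 33 counts per library, had no GC value, so the offset left it unadjusted and could not test it. Of 4 tested feedback inhibitors and 23 tested further interferon-stimulated genes, 0 passed for stiffness. By replicate number 7 of the 23 passed, beside 14.7% of all tested genes, and their directions differed. UBE2L6, the enzyme that passes ISG15 to its ligase, was one of these, with 81.6, 123 and 200.4 CPM at 8000 Pa, against 97.7, 99.5 and 353 CPM at 500 Pa. PNPT1, also among the 7, was lower in replicate 3 than in replicate 1, with a fitted log2 difference of -0.99 (adjusted p 0.0303 in edgeR). TRIM25, another of them, was highest in replicate 2 of either stiffness.

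Among the antigen-presentation genes induced by interferon, the class I heavy chains HLA-B and HLA-C and the proteasome subunit PSMB10 passed the replicate-number test in edgeR, of which HLA-B alone passed with the GC offset. HLA genes are highly alike, so reads may be shared among them. Of the excluded family, IFI27 had 0.879, 0.845 and 1.495 CPM at 8000 Pa, against 15.5, 12.5 and 5.72 CPM at 500 Pa (paired log2 fold change -3.31, adjusted p 3.62e-10 in edgeR), while IFI6 had 261, 650.4 and 835 CPM at 8000 Pa, against 284, 814 and 2208 CPM at 500 Pa, without passing for stiffness (0.314); the difference between these 2 genes was not tested.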

How the data were processed

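RNA sequencing counts of 6 libraries, 3 at 8000 Pa and 3 at 500 Pa, were used, with groups taken from the labelled stiffness. The authors deposited, for each library, whole-number counts for 26484 genes, which are not normalized, beside a log2 value. The deposited log2 values are TMM-scaled per the file headers. For 33 members with 50 or more counts per library they lay within 0.0912 of the values computed here. Per the submitters' processing notes, HISAT2 2.1.2, HTSeq 0.11.4, limma and DESeq2 were used with GRCh38. The sources used here state neither the strand setting nor the handling of reads with several matches.

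The tests used edgeR 4.0.16 (R 4.3.3) on the counts, with filterByExpr (minimum count 10, minimum total 15), TMM scaling and quasi-likelihood F tests; p-values were adjusted by Benjamini-Hochberg over all 11517 tested genes, at an FDR of 0.05. The main model had stiffness alone, the paired model added the replicate number as a block, and the replicate-number test used the 2 replicate terms of the paired model. Same-numbered libraries deviated from their group means together, with correlations across genes of 0.431, 0.199 and 0.553, each above the 0.1 required, while 0.216 was the highest value between different numbers. The 0.216 was between 8000 Pa replicate 1 and 500 Pa replicate 2, above the 0.199 of the replicate 2 pair, so the correlations do not single out that pair. Both replicate 3 libraries correlated positively with GC content (0.69 and 0.54), and the part of this in their 0.553 was not tested. The pairing rests on the numbers in the labels and on these correlations. Since 2 residual degrees of freedom remain in the paired model and the prior was infinite, its p-values rest on a trend shared by all genes. The chi-square per degree of freedom between any 2 libraries was at least 11.8, and every library was retained.

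The members, their classes and the further gene lists were chosen with earlier results of these data known. Some genes of the further lists are not reported here. Members with per-library values are those passing a test, the 3 most abundant, and the 2 highest and 2 lowest paired fold changes per class; IFIT1, IFIT3 and the genes named beyond these were added after their values were seen. GC content, exon length and gene coordinates are those of GENCODE 29 (GRCh38), which held 95.5% of the tested genes by symbol. The GC offset subtracts a lowess trend (span 0.3) per library and leaves genes without a GC value unadjusted. Promoter windows are from RefSeq, matched by symbol or synonym. Floors of 3 counts cover counting error only. The alternatives were DESeq2 1.42.0, limma-voom (limma 3.58.1), other scalings and filters, the GC offset and leaving out each library, and the steps were tested on simulated data.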

Additional observations from a re-analysis of the deposited data

How the results depend on the processing

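In the stiffness tests 0 members passed under every alternative run, paired or not. Genes passing without pairing numbered 0, and 61 with the replicate block, 7 with DESeq2, 8 with no filter on low counts, 1 with the GC offset and 0 to 1 when each library was left out (1 without 500 Pa replicate 3). Genes passing in the paired test numbered 61, and 12 (without replicate 3) to 81 (without replicate 2) when each pair was left out. Over the other settings they ran from 0 with no replicate block to 89 with limma-voom. By replicate number, 1691 genes passed, and 612 with the GC offset and 81 (without 8000 Pa replicate 3) to 3690 (without 500 Pa replicate 1) when each library was left out; the members passing ran from 1 to 22. DESeq2, limma-voom, library size alone, no filter and a filter of 1 CPM in 3 libraries left 16, 17, 12, 16 and 17 members passing by replicate number, in that order, with 11.0%, 15.8%, 14.9%, 9.03% and 14.6% of all genes. Library size alone moved the median of all genes to 0.17 unpaired and 0.16 paired, and the member medians to 0.30 in both. The cause of these differences was not tested.

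Leaving out each library or pair moved the member median from 0.00049 to 0.49 unpaired and from -0.08 to 0.52 paired. Every such setting was run for the 20 members of highest and lowest paired fold change per class, and settings other than leaving out a library turned the sign of 2 of these. IFI44L, at -0.02 unpaired, was 0.12 with the replicate block, 0.22 with limma-voom and 0.15 with library size alone, and at 0.12 paired it was -0.019 with no replicate block. The paired value of ISG15 was 0.075 with the GC offset. Of the members outside these 20, the GC offset turned the paired value of OAS1 to -0.03 and that of SP100 to -0.09, and IFIT5 was 0.05 unpaired and -0.02 paired. Leaving out each library in turn changed the sign of the unpaired log2 fold change of 14 of the 20, with ranges of -1.05 to 0.77 for ISG15, -0.12 to 0.51 for USP18, -0.77 to 0.15 for DHX58, -0.50 to 0.21 for IFIH1, -0.12 to 1.25 for OASL, -0.96 to 0.12 for IFITM3, -0.82 to 0.25 for IFI35, -0.73 to 0.19 for LGALS3BP, -0.44 to 0.51 for IFI44L, -0.11 to 0.72 for IFI44, -1.15 to 0.23 for IRF7, -0.60 to 0.045 for IRF1, -0.65 to 0.39 for IRF9 and -0.079 to 0.44 for STAT2. Leaving out each pair changed the sign of the paired value of 8, with ranges of -0.56 to 0.15 for ISG15, -0.077 to 0.29 for USP18, -0.63 to 0.086 for IFIH1, -0.22 to 0.70 for IFI44L, -0.079 to 0.90 for IFI44, -0.77 to 0.059 for IRF7, -0.46 to 0.090 for IRF9 and -0.14 to 0.36 for STAT2. None of these values passed the threshold.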
